A study of Mus musculus with 6 samples.

Results

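The genes examined encode the inhibitors of cyclin-dependent kinases: Cdkn1a, Cdkn1b and Cdkn1c of the Cip/Kip family and Cdkn2a, Cdkn2b, Cdkn2c and Cdkn2d of the INK4 family. All probe sets annotated with 1 of these 7 symbols and no other were taken, which gave 7 of 18193 genes measured in this way and 9 of 35877 probe sets tested. Cdkn1a and Cdkn1b had 2 probe sets each, the other genes 1. Their levels were measured in mouse haematopoietic stem cells from the bone marrow of the long bones, sorted as positive for GFP, c-Kit and Sca-1 and negative for lineage markers, on 6 arrays in 3 groups of 2. The vector group carried the empty GFP vector. The BCR/ABL group was transduced with BCR/ABL, the fusion kinase of chronic myeloid leukaemia (CML), and came from untreated CML mice. The BCR/ABL imatinib group carried the same fusion gene and came from CML mice given imatinib, an inhibitor of that kinase. All 3 groups therefore share transduction and GFP. The sources used here give no strain, age, or imatinib dose and duration, and do not say whether the vector mice were treated or whether replicate arrays represent different mice. A p-value here thus reflects array-to-array spread alone, part or all of which may be technical.

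Progress from G1 into S phase depends on cyclin D with CDK4 or CDK6 and on cyclin E with CDK2, which phosphorylate the retinoblastoma proteins and release E2F factors. INK4 proteins bind CDK4 and CDK6, whereas Cip/Kip proteins bind cyclin and kinase complexes more widely and act most strongly on CDK2. In haematopoietic stem cells, p27 (Cdkn1b) and p57 (Cdkn1c) are linked to quiescence, p21 (Cdkn1a) to the response to stress, p18 (Cdkn2c) to limits on self-renewal, and p16 and Arf (both from Cdkn2a) to senescence and p53 activation. Much of the control of p27 is exerted on the protein, by SKP2-dependent degradation and by export from the nucleus, which transcript arrays do not see.

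The vector arrays were the least alike. Across probe sets, replicates correlated at 0.971 (vector), 0.99 (BCR/ABL) and 0.985 (imatinib). Median deposited intensity ran from 35.6 to 57.2, and from 36.1% to 41.5% of probe sets lay below an intensity of 16, so low values cannot be separated from background. Levels are given first as deposited intensity and then as log2(intensity + 16) after quantile normalization, which has a floor of 4. A difference on that scale understates the change of a dim gene. The brighter probe set of a gene is its main one, and levels of different genes are not set against each other because probes differ in brightness. Of the sort markers, Kit (c-Kit) had log2 levels of 10.88 (vector), 10.25 (BCR/ABL) and 11.39 (imatinib), while the Sca-1 gene Ly6a was not analysed here.

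Compared with vector cells, BCR/ABL cells had higher Cdkn2b, Cdkn2a and Cdkn1a signals and lower Cdkn1b, and none of these differences passed the test across all genes. On the log2 scale the differences were 3.20 for Cdkn2b, 2.97 for Cdkn2a, 1.33 for Cdkn1a and -0.60 for Cdkn1b. In cells from imatinib-treated mice Cdkn1b lay above both other groups, and Cdkn2b lay between them. By limma with Benjamini-Hochberg adjustment, 0 of 7 genes reached an adjusted p under 0.05 in BCR/ABL against vector, where 0.0613% of all probe sets did (0.0585% higher and 0.00279% lower). At an unadjusted p under 0.05, 3 of the 7 were higher and 1 was lower, against a background of 6.3% and 5.18% of probe sets. The 2 groups did not overlap for any of the 7 genes, 5 higher and 2 lower in BCR/ABL. Without regard to size, 43.2% of all probe sets were separated in this way, 23.5% higher and 19.7% lower. The median change of the 7 genes was 0.44, beside 0.02 for all probe sets. That median is the value of Cdkn1c, which lay near background on all arrays, so it does not describe the brighter genes.

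For imatinib-treated against untreated BCR/ABL cells, 0 of 7 genes passed, as did 0% of all probe sets. Here 1 gene was higher and 1 lower at an unadjusted p under 0.05, where 6.26% and 8.34% of probe sets were. Groups were separated for 2 higher and 2 lower genes and overlapped for 3, against 49.6% of all probe sets separated, 22.5% higher and 27% lower. The median change was -0.48, again the value of Cdkn1c near background, beside -0.01 for all. Against vector, imatinib-treated cells again gave 0 of 7 calls, where 0.0446% of probe sets passed (0.0418% higher and 0.00279% lower), with 4 genes higher and 0 lower at an unadjusted p under 0.05 (background 6.98% and 6.81%). In that comparison 5 genes were separated upwards and 0 downwards, where 42.1% of all probe sets were separated, 19.7% upwards and 22.4% downwards, and the median change was 0.54, beside -0.01 for all. These comparisons share arrays in pairs, so they do not support one another.

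**Figure D1:**
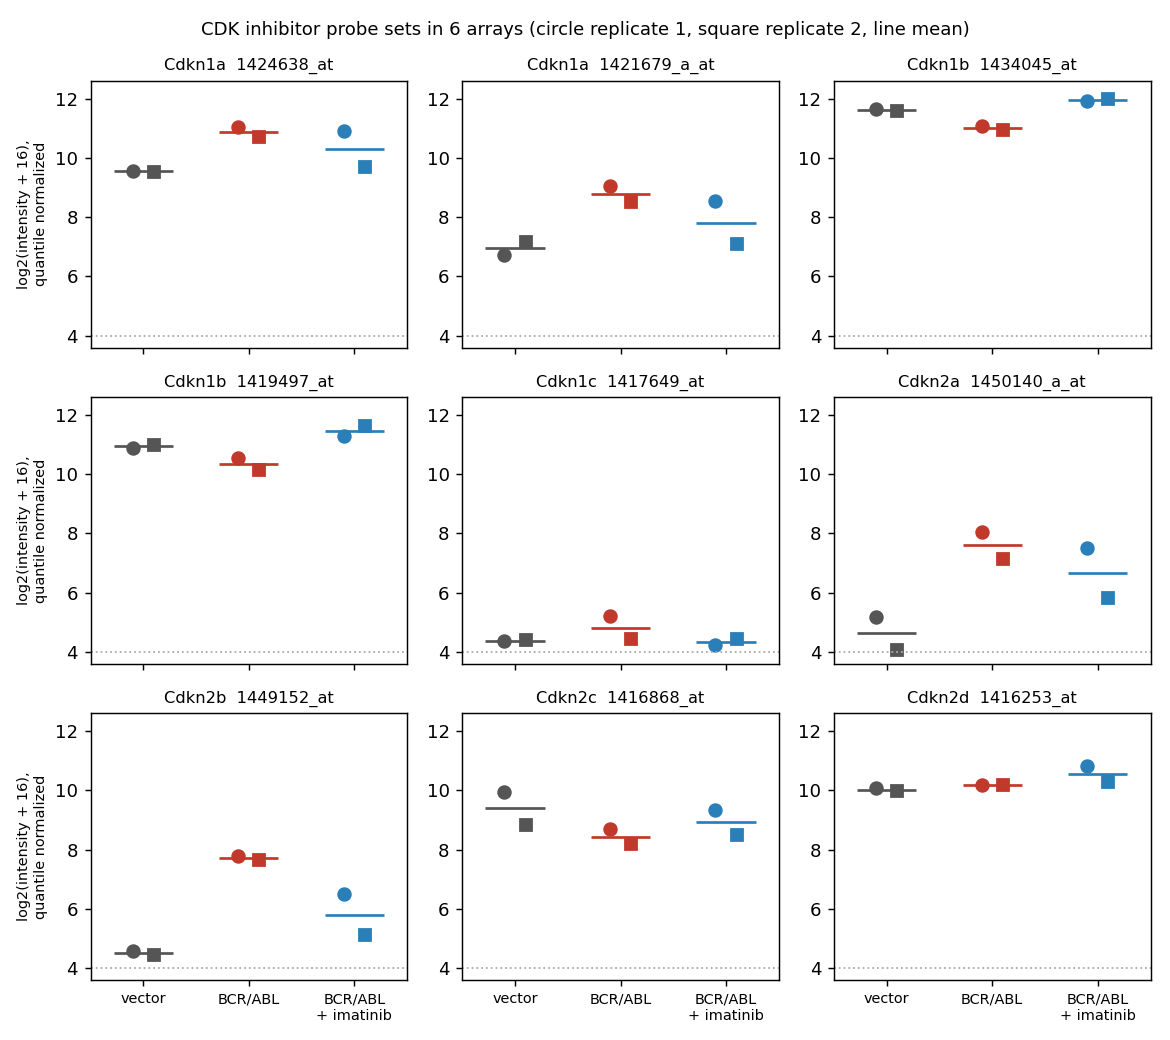
Log2 level of each of the 9 CDK inhibitor probe sets (vertical axis, log2 of intensity + 16 after quantile normalization) in the 3 groups. Circles are replicate 1, squares replicate 2, lines group means and the dotted line the floor of 4. Both Cdkn1b probe sets are lowest in BCR/ABL and highest with imatinib, and Cdkn2b leaves the floor region in BCR/ABL.

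Cdkn1b encodes p27, which holds cyclin E and CDK2 inactive and marks cells that have left the cycle. Its main probe set, 1434045_at, had deposited intensities of 3155 and 3086 on the vector arrays, 2216 and 1961 on the BCR/ABL arrays, and 3817 and 3967 on the imatinib arrays. The order was imatinib, then vector, then BCR/ABL, and no 2 groups overlapped. Group levels were 11.62 ± 0.04, 11.02 ± 0.11 and 11.96 ± 0.06 on the log2 scale (SD, n = 2 in each, in the order vector, BCR/ABL, imatinib). BCR/ABL cells therefore differed from vector by -0.60 (SE 0.10, 95% confidence interval -0.83 to -0.36, limma adjusted p = 0.155), which is 0.661 times the vector level. Imatinib-treated cells differed from untreated BCR/ABL cells by 0.94 (SE 0.10, interval 0.70 to 1.17, limma adjusted p = 0.102), or 1.91-fold, and from vector by 0.34 (interval 0.10 to 0.58, limma adjusted p = 0.245). Among all 35877 probe sets its p in the imatinib comparison ranked 21.

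The second Cdkn1b probe set, 1419497_at, gave 1848 and 2039 on the vector arrays, 1499 and 1115 on the BCR/ABL arrays, and 2469 and 3061 on the imatinib arrays. It had the same order with no overlap, and its differences were -0.61, 1.12 and 0.51 in the 3 comparisons, in the order given (limma adjusted p = 0.343, 0.118 and 0.320). Restricting the test to the brighter 50% of probe sets left the imatinib difference of 0.94 at limma adjusted p = 0.0358. That restriction is the sole alternative under which it passed, and 211 probe sets passed with it. With arrays centred on their medians the Cdkn1b differences were -0.37 from vector and 0.57 with imatinib (limma adjusted p = 0.421 and 0.114), but this centring moved the median of all probe sets to 0.20 and -0.27, so that relative to all probe sets they were -0.57 and 0.84. The difference from vector with imatinib was 0.20 under this centring, or 0.29 relative to all probe sets.

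The 250 bases before the RefSeq start of Cdkn1b (mouse assembly GRCm38.p6, chr6:134920151-134920400, plus strand) are shown because no groups overlapped for this gene, with capitals marking a GC box:
Cdkn1b: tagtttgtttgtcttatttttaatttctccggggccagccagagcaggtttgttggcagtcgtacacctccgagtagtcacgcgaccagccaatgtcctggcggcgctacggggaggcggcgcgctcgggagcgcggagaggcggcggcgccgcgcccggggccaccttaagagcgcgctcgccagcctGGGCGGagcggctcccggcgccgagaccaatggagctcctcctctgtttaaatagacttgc
The window searched ran from 250 bases before to 50 after each start, on both strands. The GC box GGGCGG, a site type bound by Sp1, occurred 1 time in the Cdkn1b window, and 35.7% of 32851 promoter windows held at least 1. The forkhead motif TGTTTAC, which on the other strand reads GTAAACA, was not among its letters and is held by 3.65% of windows. Neither was the E-box CACGTG, held by 7.15%. RefSeq windows were matched for 6 of the 7 genes, 9 windows in all, and Cdkn1c was not matched. The forkhead motif was in 0 of these 9 and the E-box in 1, a Cdkn2c window.

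Cdkn1a encodes p21, the Cip/Kip inhibitor that p53 induces after DNA damage and other stress. Its main probe set, 1424638_at, had intensities of 731 and 716 on the vector arrays, 2145 and 1667 on the BCR/ABL arrays, and 1933 and 834 on the imatinib arrays. Both BCR/ABL arrays lay above both vector arrays. The imatinib arrays were split: replicate 1 lay within the BCR/ABL range and replicate 2 closer to vector. BCR/ABL differed from vector by 1.33 on the log2 scale (SE 0.39, interval 0.38 to 2.27, limma adjusted p = 0.333), or 2.51-fold. Imatinib-treated cells differed from untreated ones by -0.56 (SE 0.39, interval -1.51 to 0.39, limma adjusted p = 0.586), and from vector by 0.77 (limma adjusted p = 0.451).

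The imatinib value of Cdkn1a rested on 1 array. Without imatinib replicate 2 the difference from untreated cells was 0.05, and without replicate 1 it was -1.17. Against vector these were 1.39 and 0.15. The other Cdkn1a probe set, 1421679_a_at, repeated the pattern with intensities of 101 and 122 on the vector arrays, 500 and 334 on the BCR/ABL arrays, and 365 and 140 on the imatinib arrays. Its differences were 1.83, -0.96 and 0.87 in the 3 comparisons (limma adjusted p = 0.333, 0.493 and 0.536).

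Cdkn1a has 2 RefSeq starts on the plus strand of chromosome 17, and the 250 bases before each are shown because this gene is a standard p53 target. The first window, chr17:29090729-29090978, has in capitals the single stretch matching the p53 consensus of 2 adjacent 10-base repeats with at most 1 mismatch. In the second, chr17:29093519-29093768, capitals mark GC boxes:
Cdkn1a first start: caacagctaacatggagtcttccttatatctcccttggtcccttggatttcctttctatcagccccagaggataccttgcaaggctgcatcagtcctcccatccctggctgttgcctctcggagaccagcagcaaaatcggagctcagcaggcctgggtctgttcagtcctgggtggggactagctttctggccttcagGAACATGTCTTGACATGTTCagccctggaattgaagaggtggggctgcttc
Cdkn1a second start: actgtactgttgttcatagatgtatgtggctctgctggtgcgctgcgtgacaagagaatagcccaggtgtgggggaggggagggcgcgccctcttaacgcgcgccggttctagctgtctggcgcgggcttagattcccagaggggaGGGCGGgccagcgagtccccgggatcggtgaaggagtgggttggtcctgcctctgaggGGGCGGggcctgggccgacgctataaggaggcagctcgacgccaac
The stretch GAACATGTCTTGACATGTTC has 1 mismatch to the consensus and begins 51 bases before the first start. Of 32851 windows, 29 held such a stretch, or 0.0883%, and none of the other 8 windows of these genes did. This motif was added after the sequences had been seen, and a match is a description and not evidence of binding.

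Cdkn1c encodes p57, the third Cip/Kip inhibitor, an imprinted gene. Its 1 probe set, 1417649_at, lay at 3.93 and 4.93 on the vector arrays, 16.3 and 5.14 on the BCR/ABL arrays, and 3.48 and 6.85 on the imatinib arrays. All values are near background, and 1 BCR/ABL array stood above the rest. The differences of 0.44, -0.48 and -0.04 on the log2 scale (limma adjusted p = 0.573, 0.471 and 0.970) stayed close to the floor. Without BCR/ABL replicate 1 the first was 0.06 and the second -0.10, and without BCR/ABL replicate 2 they were 0.83 and -0.88. With 1 as the added constant they were 1.06 and -1.26, and with 64 they were 0.16 and -0.17. The last was 0.05 without imatinib replicate 1, and 0.05 with values as deposited.

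Cdkn2b encodes p15, an INK4 inhibitor that transforming growth factor beta induces. Its probe set, 1449152_at, had intensities of 7.02 and 5.77 on the vector arrays, 182 and 172 on the BCR/ABL arrays, and 75.9 and 23.96 on the imatinib arrays. The vector arrays were near background, both BCR/ABL arrays were far above them, and both imatinib arrays lay between, with no overlap of any 2 groups. Log2 levels were 4.51 ± 0.10, 7.71 ± 0.10 and 5.80 ± 0.96 (SD, n = 2 in each, in the order vector, BCR/ABL, imatinib). BCR/ABL differed from vector by 3.20 (SE 0.51, interval 1.94 to 4.46, limma adjusted p = 0.152). Imatinib-treated cells differed from untreated ones by -1.91 (SE 0.51, interval -3.17 to -0.64, limma adjusted p = 0.186) and from vector by 1.29 (interval 0.03 to 2.55, limma adjusted p = 0.354).

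The size of the Cdkn2b difference depends on the constant added before the log, since vector lies near the floor: BCR/ABL against vector gave 4.66 with 1 and 1.86 with 64. With arrays centred on their medians the difference of 3.32 passed (limma adjusted p = 0.00878), or 3.12 relative to all probe sets, and 298 probe sets passed with it. Without imatinib replicate 1 the difference from untreated cells was -2.60, and without replicate 2 it was -1.24. Against vector the same omissions gave 0.61 and 1.95. The bases before its start are shown because no groups overlapped for this gene either (chr4:89311033-89311282, minus strand). No groups overlapped for Cdkn2d as well, but its bases are not shown. No letters are in capitals, since none of the searched motifs lay whole before the start:
Cdkn2b: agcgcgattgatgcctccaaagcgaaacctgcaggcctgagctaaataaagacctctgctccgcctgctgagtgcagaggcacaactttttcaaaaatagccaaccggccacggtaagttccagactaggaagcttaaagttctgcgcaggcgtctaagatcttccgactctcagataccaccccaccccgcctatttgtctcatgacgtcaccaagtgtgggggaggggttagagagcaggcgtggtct

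Cdkn2a encodes the INK4 inhibitor p16 and, from another first exon and reading frame, Arf, which stabilises p53. Its 1 probe set, 1450140_a_at, need not separate the 2 transcripts. Intensities were 19.8 and 0.732 on the vector arrays, 230 and 117 on the BCR/ABL arrays, and 166 and 50.6 on the imatinib arrays. Every BCR/ABL and imatinib array exceeded both vector arrays, while the imatinib arrays overlapped the BCR/ABL range. BCR/ABL differed from vector by 2.97 on the log2 scale (SE 0.73, interval 1.19 to 4.75, limma adjusted p = 0.286). Imatinib-treated cells differed from vector by 2.03 (interval 0.25 to 3.82, limma adjusted p = 0.316) and from untreated ones by -0.94 (interval -2.72 to 0.84, limma adjusted p = 0.635).

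For Cdkn2a the vector arrays also lay near the floor, and the difference of BCR/ABL from vector was 4.89 with 1 as the added constant and 1.72 with 64. With median-centred arrays it was 3.10, or 2.90 relative to all probe sets, and passed (limma adjusted p = 0.0410). With imatinib against untreated cells, leaving out imatinib replicate 2 gave -0.10 and leaving out replicate 1 gave -1.79. Against vector the same omissions gave 2.87 and 1.19.

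Cdkn2c encodes p18. Its probe set, 1416868_at, had intensities of 956 and 431 on the vector arrays, 380 and 260 on the BCR/ABL arrays, and 640 and 372 on the imatinib arrays. Both BCR/ABL arrays were below both vector arrays, and the imatinib arrays overlapped each of the other groups. BCR/ABL differed from vector by -0.97 on the log2 scale (SE 0.46, interval -2.10 to 0.17, limma adjusted p = 0.498). The other differences were 0.49 with imatinib against untreated cells (limma adjusted p = 0.708) and -0.47 against vector (limma adjusted p = 0.708). Vector replicate 1 was the highest array: without it the BCR/ABL difference was -0.42 and the imatinib difference from vector 0.08, and without vector replicate 2 they were -1.51 and -1.02. Without imatinib replicates 1 and 2 in turn, the imatinib difference from vector was -0.90 and -0.05. The imatinib difference from untreated cells was 0.06 without imatinib replicate 1 and 0.93 without replicate 2.

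Cdkn2d encodes p19, a further INK4 inhibitor. Its probe set, 1416253_at, had intensities of 1046 and 967 on the vector arrays, 1151 and 1145 on the BCR/ABL arrays, and 1804 and 1232 on the imatinib arrays. The groups ran in the order vector, BCR/ABL, imatinib without overlap, but vector and BCR/ABL were close. BCR/ABL differed from vector by 0.15 on the log2 scale (interval -0.33 to 0.63, limma adjusted p = 0.808), an interval that leaves room for differences in either direction. The imatinib differences were 0.39 from untreated cells (interval -0.09 to 0.87, limma adjusted p = 0.445) and 0.54 from vector (interval 0.06 to 1.02, limma adjusted p = 0.323). Without imatinib replicate 1 these were 0.12 and 0.27, and without replicate 2 they were 0.66 and 0.81. With median-centred arrays the difference of BCR/ABL from vector was 0.40, or 0.20 relative to all probe sets, and that of imatinib-treated from untreated cells was 0.04, or 0.31 relative to all probe sets. Without vector replicate 2 the first was 0.09.

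**Figure D2:**
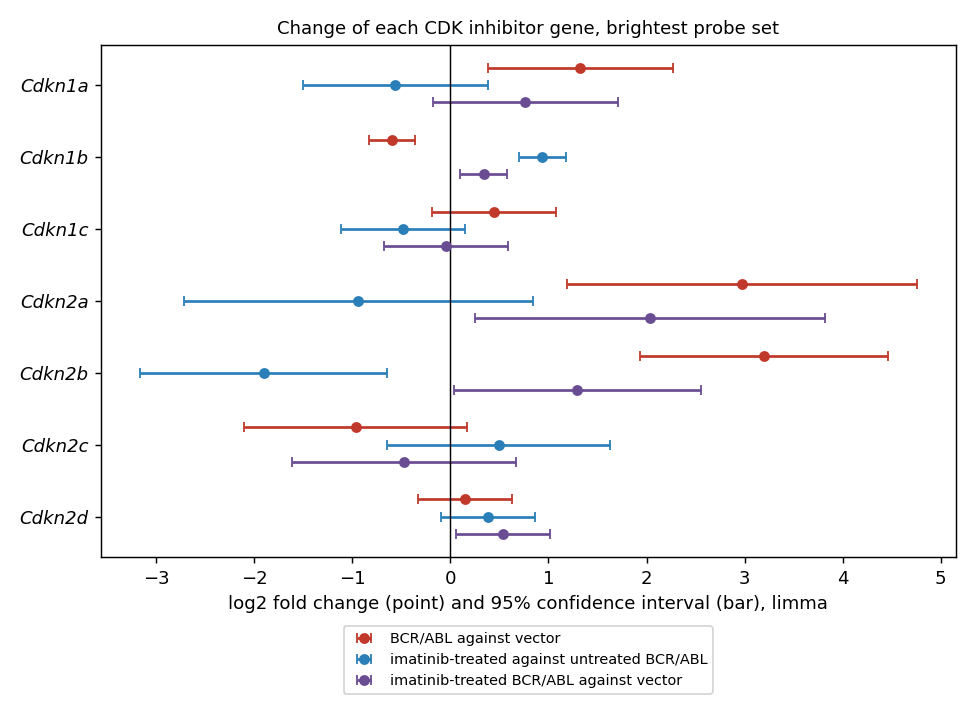
Log2 fold change of the main probe set of each CDK inhibitor gene (horizontal axis) in the 3 comparisons, with limma's 95% confidence interval as bars. Cdkn1b has the narrowest intervals and differs in opposite directions in BCR/ABL against vector (-0.60) and imatinib-treated against untreated cells (0.94), and Cdkn2b differs by 3.20 and -1.91.

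The 2 imatinib arrays differed from each other in the same direction for Cdkn1a, Cdkn2a, Cdkn2b, Cdkn2c and Cdkn2d, all higher in replicate 1, and in the other direction for Cdkn1b and Cdkn1c. This was not particular to imatinib. In vector and in BCR/ABL the main probe sets of Cdkn1a, Cdkn2a, Cdkn2b, Cdkn2c and Cdkn2d were also higher in replicate 1. The second Cdkn1a probe set was lower there in vector. Centred on the mean of 6 arrays, imatinib replicates 1 and 2 lay at 0.68 and -0.54 for Cdkn1a, at 1.21 and -0.48 for Cdkn2a and at 0.48 and -0.88 for Cdkn2b. Marker lists of other cell types also differed between arrays. In a bulk sample, fewer cells of a type and less RNA per cell cannot be told apart.

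Summed intensity of 9 measured of 10 mast cell and basophil markers was 16090 and 11340 on the vector arrays, 42460 and 41870 on the BCR/ABL arrays, and 63760 and 55080 on the imatinib arrays. All 9 were higher in BCR/ABL than in vector, with 1 called (the histamine-synthesis gene Hdc, 2.35, limma adjusted p = 0.0236), beside 0.0585% of all probe sets called higher. Imatinib-treated cells also had all 9 above vector (median 2.44), with 2 called beside 0.0418% of all probe sets. These were Hdc with 2.44 (limma adjusted p = 0.0363) and the mast cell tryptase Tpsab1 (limma adjusted p = 0.0484), which lay near the floor in vector at log2 4.05 ± 0.02 and at 9.86 ± 0.84 with imatinib (SD, n = 2). The sums had the direction of the Cdkn2b, Cdkn2a and Cdkn1a signals between vector and BCR/ABL, and were highest with imatinib. The part of these cells in the inhibitor values was not tested.

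B cell markers, 9 measured of 10, summed to 22610 and 4746 on the vector arrays, 1299 and 2437 on the BCR/ABL arrays, and 704 and 1776 on the imatinib arrays. Their order over the vector arrays was that of Cdkn2c, which was highest in vector replicate 1. The erythroid, granulocyte, monocyte and macrophage, and T and NK cell sums were also higher in vector replicate 1 than in replicate 2. On the BCR/ABL and imatinib arrays the order was the reverse, with B cell sums higher in replicate 2 and Cdkn2c higher in replicate 1. The defining gene Pax5 was near the floor in all groups, at log2 4.12 in vector, while Ebf1 was at 10.66. Between 1 and 2 of the 9 lay below an intensity of 32 in vector and 5 with imatinib. The part of B lineage cells in the Cdkn2c values was not tested.

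Megakaryocyte markers, 7 measured of 9, summed to 1830 and 2021 on the vector arrays, 3923 and 3326 on the BCR/ABL arrays, and 7021 and 6737 on the imatinib arrays. Erythroid markers, 8 of 10, summed to 17760 and 10580 (vector), 12930 and 10600 (BCR/ABL), and 16890 and 8840 (imatinib). They were thus higher in replicate 1 in each group, as were the main probe sets of Cdkn1a, Cdkn2a, Cdkn2b, Cdkn2c and Cdkn2d. The part of erythroid cells in those values was not tested. Of the stem cell markers, 7 of 9 were measured, and Kit alone among them was used in the sort. They summed to 8858 and 12800 (vector), 9318 and 7859 (BCR/ABL), and 11740 and 15010 (imatinib). The group order of these sums was that of Cdkn1b, lowest in BCR/ABL and highest with imatinib, although vector overlapped both other groups. By gene the list was split between BCR/ABL and vector, with 3 higher and 4 lower (median -0.09). With imatinib all 7 were above untreated cells (median 0.83). Kit, Flt3 and Cd34 had the order of Cdkn1b in their means, although vector and BCR/ABL overlapped for Cd34. Slamf1, Procr and Hlf were lowest in vector and Meis1 was highest there. The part of stem cell content in the Cdkn1b values was not tested. Granulocyte markers, 9 of 10, ran from 38190 in vector replicate 2 to 71520, and monocyte and macrophage markers, 7 of 10, from 11130 to 17210. T and NK cell markers, 8 of 10, ran from 4045 to 5841, a sum set largely by Nkg7 at log2 12.20 (vector), 12.21 (BCR/ABL) and 12.12 (imatinib). By gene, 7 of 8 were lower in BCR/ABL than in vector (median -1.13), and all 8 with imatinib (median -0.89). In each comparison 4 were lower at an unadjusted p under 0.05, beside 5.18% and 6.81% of all probe sets. On the vector arrays 1 and 5 of the 8 lay below an intensity of 32. The 3-prime to 5-prime ratio of beta-actin, a measure of RNA integrity, was 1.81 and 1.62 on the vector arrays, 1.48 and 1.30 on the BCR/ABL arrays, and 1.74 and 1.55 on the imatinib arrays. It was therefore lowest where Cdkn2b was highest and Cdkn1b lowest, and its part in those values was not tested.

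**Figure D3:**
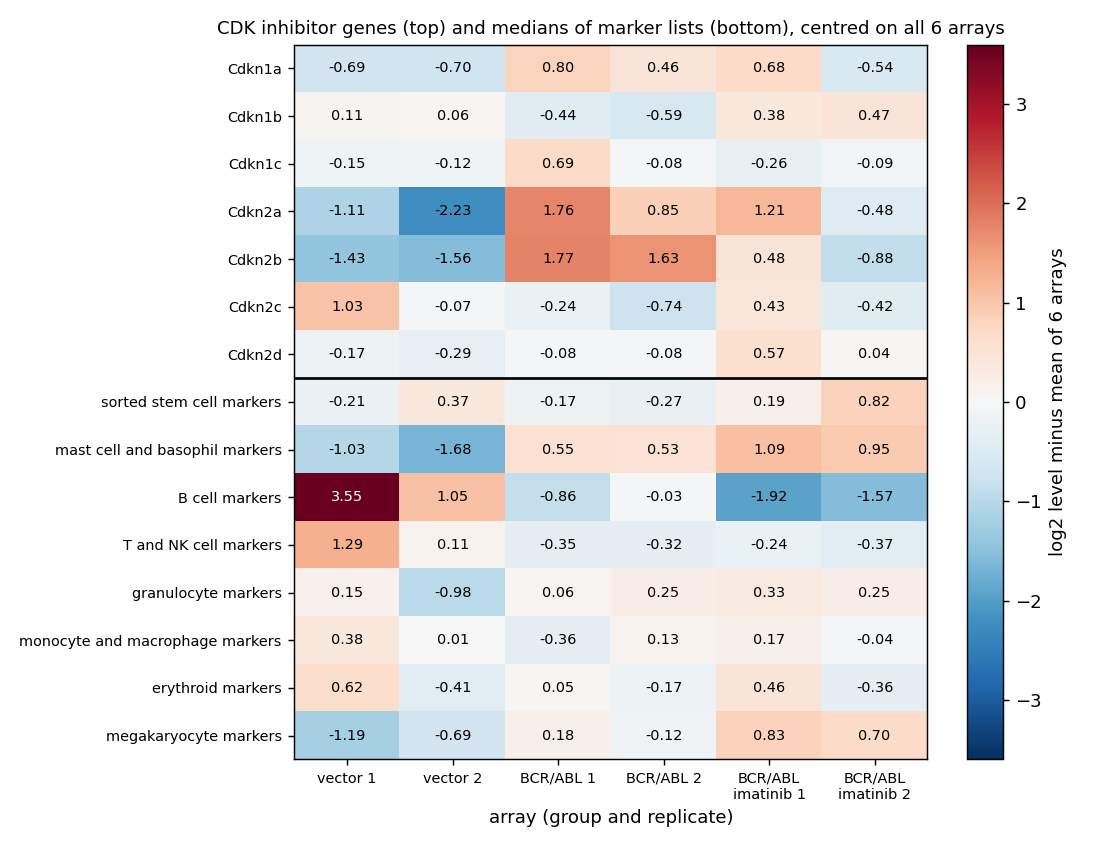
Log2 level of each CDK inhibitor gene (top) and the median over each list of cell type markers (bottom) on the 6 arrays, minus its mean over the arrays, with colour from blue (below the mean) to red (above). Cdkn2a, Cdkn2b and Cdkn1a share low values in vector, and the B cell list stands at 3.55 in vector replicate 1.

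For the lists that follow, counts are given relative to 0 after quantile normalization. Counts with median-centred arrays or values as deposited are added where either changes which direction holds the majority. Median centring moved the median of all probe sets, so its counts are then also given relative to that median. Among the kinases and cyclins that these inhibitors bind, 0 of 9 genes passed in any comparison. They were lower for 6 of 9 in BCR/ABL against vector, but higher for 8 of 9 with median-centred arrays. Relative to all probe sets, whose median was then 0.20, 4 were higher and 5 lower. Of all probe sets in this comparison, 11.5% of all probe sets had an unadjusted p under 0.05, and 1 of the 9 did. That gene was Ccnd2 (cyclin D2), with 0.35 (limma adjusted p = 0.278), followed by Ccnd1 (cyclin D1) with -0.55 (limma adjusted p = 0.456). After imatinib, 7 of 9 were lower than in untreated cells, and 1 had an unadjusted p under 0.05 beside 14.6% of all probe sets. Ccnd2 differed by -0.27 (limma adjusted p = 0.239) and Ccne2, a cyclin E, by -0.52 (limma adjusted p = 0.430). Against vector, 1 of 9 did, beside 13.8% of all: Ccnd1 with -0.83 (limma adjusted p = 0.247), with Ccne1 next at -1.24 (limma adjusted p = 0.407).

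Of 6 retinoblastoma and E2F genes, 0 passed in any comparison. In BCR/ABL against vector 3 were higher and 3 lower, or 6 and 0 with median-centred arrays (4 and 2 relative to all probe sets). None had an unadjusted p under 0.05 there, and Rb1 (0.25) and E2f1 (0.23) had the lowest p (limma adjusted p = 0.664 and 0.835). With imatinib, Rbl2, the p130 pocket protein of quiescent cells, differed by 0.76 from untreated cells and 0.70 from vector (limma adjusted p = 0.170 and 0.234). The activator E2f3 differed by -0.20 and -0.23 (limma adjusted p = 0.391 and 0.358). The levels of Rbl2 were 9.15 ± 0.28 (vector), 9.09 ± 0.03 (BCR/ABL) and 9.85 ± 0.01 (imatinib; SD, n = 2), an order in which vector and BCR/ABL did not differ beyond their spread.

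The machinery that degrades or exports p27 and p21 comprised 11 measured genes of 12 listed names, with 0 calls in any comparison. In BCR/ABL against vector 0 of 11 had an unadjusted p under 0.05, and the lowest p were those of the ubiquitin ligase scaffold Cul4a, -0.30, and of Rnf123, a ligase subunit for p27, 0.34 (limma adjusted p = 0.556 and 0.568). In the imatinib comparison with untreated cells 3 of 11 were lower at that level, beside 8.34% of all probe sets. They were Skp2, the receptor that recruits p27 for degradation, with -0.71 (SE 0.15, limma adjusted p = 0.142), Cops5 with -0.27 (limma adjusted p = 0.244) and the SKP2 cofactor Cks1b with -0.15 (limma adjusted p = 0.325). Skp2 lay at 10.05 ± 0.11 (vector), 10.09 ± 0.15 (BCR/ABL) and 9.38 ± 0.04 (imatinib; SD, n = 2). Vector and BCR/ABL differed by less than their spread for Skp2, and both lay above the imatinib arrays. Against vector 1 of 11 had such a p, Skp2 with -0.67 (limma adjusted p = 0.191), and Cks1b followed with -0.15 (limma adjusted p = 0.373).

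Transcriptional regulators of the inhibitor genes gave 0 calls among 16 measured of 17, and Trp53 itself was not analysed here. In BCR/ABL against vector, 5 were lower and 0 higher at an unadjusted p under 0.05, beside 5.18% and 6.3% of all probe sets. Foxo1 and Foxo4, forkhead factors that activate Cdkn1b and are inhibited by AKT signalling, had the lowest p, with -1.72 and -0.69 (limma adjusted p = 0.271 and 0.308). The whole list had 10 higher and 6 lower in this comparison, or 8 and 8 with values as deposited. Between imatinib-treated and untreated cells it had 10 higher and 6 lower, but 6 higher and 10 lower with median-centred arrays. Relative to all probe sets, whose median was then -0.27, 11 were higher and 5 lower. At an unadjusted p under 0.05, 5 were higher and 1 was lower (background 6.26% and 8.34%). Foxo4 differed by 0.67 (limma adjusted p = 0.187) and the Polycomb subunit Eed by -0.37 (limma adjusted p = 0.236). Against vector 7 were higher and 9 lower, or 8 and 8 with values as deposited, and 1 in each direction had such a p (background 6.98% and 6.81%): Rnf2, a Polycomb ubiquitin ligase, with 0.42 and Ezh2, the Polycomb methyltransferase, with -0.34 (limma adjusted p = 0.320 and 0.215).

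Other genes described as FoxO targets formed a list of 10, all measured. Between BCR/ABL and vector 3 were higher and 7 lower, with a median of -0.37, and 5 of the lower ones had an unadjusted p under 0.05, beside 5.18% of all probe sets. With median-centred arrays 4 were higher and 6 lower (3 and 7 relative to all probe sets). Of the lower ones 1 passed: Trp53inp1, which p53 also induces, fell by 1.35 (limma adjusted p = 0.0470). It passed in 5 of 14 alternatives and in none that left out an array (limma adjusted p from 0.0699 to 0.513). Next was the repressor Bcl6 with -1.32 (limma adjusted p = 0.165). With imatinib against untreated cells all 10 were higher, with a median of 1.11 beside -0.01 for all probe sets. With median-centred arrays 9 of 10 were, with a median of 0.74 beside -0.27 for all. None passed, and 8 had an unadjusted p under 0.05, beside 6.26% of all probe sets higher at that level. Trp53inp1 differed by 1.87 (limma adjusted p = 0.0815) and the mitochondrial kinase Pink1 by 1.24 (limma adjusted p = 0.102). Against vector all 10 were again higher, with a median of 0.71, 0 calls and 7 at an unadjusted p under 0.05, beside 6.98% of all probe sets. There Pink1 had 0.80 and the thioredoxin inhibitor Txnip 0.79 (limma adjusted p = 0.123 and 0.138). The Cdkn1b differences of -0.60, 0.94 and 0.34 have the signs of these medians. The list and the member were chosen with earlier results known, so this is a description.

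Other p53 targets, the group to which Cdkn1a belongs, had 12 measured genes of 13. Between BCR/ABL and vector 8 were higher and 4 lower (median 0.24), and at an unadjusted p under 0.05 there were 5 higher and 1 lower, beside 6.3% and 5.18% of all probe sets. The lower one was Trp53inp1, the 1 call, where 0.00279% of all probe sets were called lower. The next lowest p was that of the receptor gene Eda2r with 1.56 (limma adjusted p = 0.321). Of the 5 higher genes, Eda2r, Plk2 and Phlda3 lay near the floor in vector, at log2 4.93, 4.86 and 5.49. The others, Sesn2 and Zmat3, lay at 6.55 and 8.73 there. Imatinib-treated cells had 6 higher and 6 lower than untreated ones (median 0.04), with 0 calls. The counts were 4 and 8 with median-centred arrays and 8 and 4 as deposited. Relative to all probe sets they were 6 and 6 under each of these. At an unadjusted p under 0.05 there were 2 higher, beside 6.26% of all probe sets, Trp53inp1 with 1.87 and the growth arrest gene Gadd45a with 0.87 (limma adjusted p = 0.0815 and 0.123). Against vector all 12 were higher (median 0.49), with 0 calls and 5 at an unadjusted p under 0.05, beside 6.98% of all probe sets. Gadd45a had 0.82 and Ccng1 0.36 (limma adjusted p = 0.163 and 0.187).

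Proliferation genes, 16 measured of 18 listed names, gave 0 calls. Between BCR/ABL and vector 7 were higher and 9 lower (median -0.08), or 13 and 3 with median-centred arrays (7 and 9 relative to all probe sets). Of the lower ones 1 had an unadjusted p under 0.05, beside 5.18% of all probe sets, the helicase subunit Mcm4 with -0.25, and the topoisomerase Top2a followed with -0.19 (limma adjusted p = 0.399 and 0.468). After imatinib 15 of 16 were lower than in untreated cells (median -0.22), 7 of them at an unadjusted p under 0.05, beside 8.34% of all probe sets. Tyms, which makes thymidylate for DNA synthesis, had -1.65 and the mitotic kinase Plk1 -0.93 (limma adjusted p = 0.128 and 0.142). Against vector all 16 were lower (median -0.29), 6 of them at that level beside 6.81% of all probe sets, with Tyms at -1.53 and Top2a at -0.39 (limma adjusted p = 0.173 and 0.174). The Cdkn1b difference of -0.60 between BCR/ABL and vector stood beside proliferation genes with a median of -0.08. With median-centred arrays that median was 0.11, or -0.09 relative to all probe sets.

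**Figure D4:**
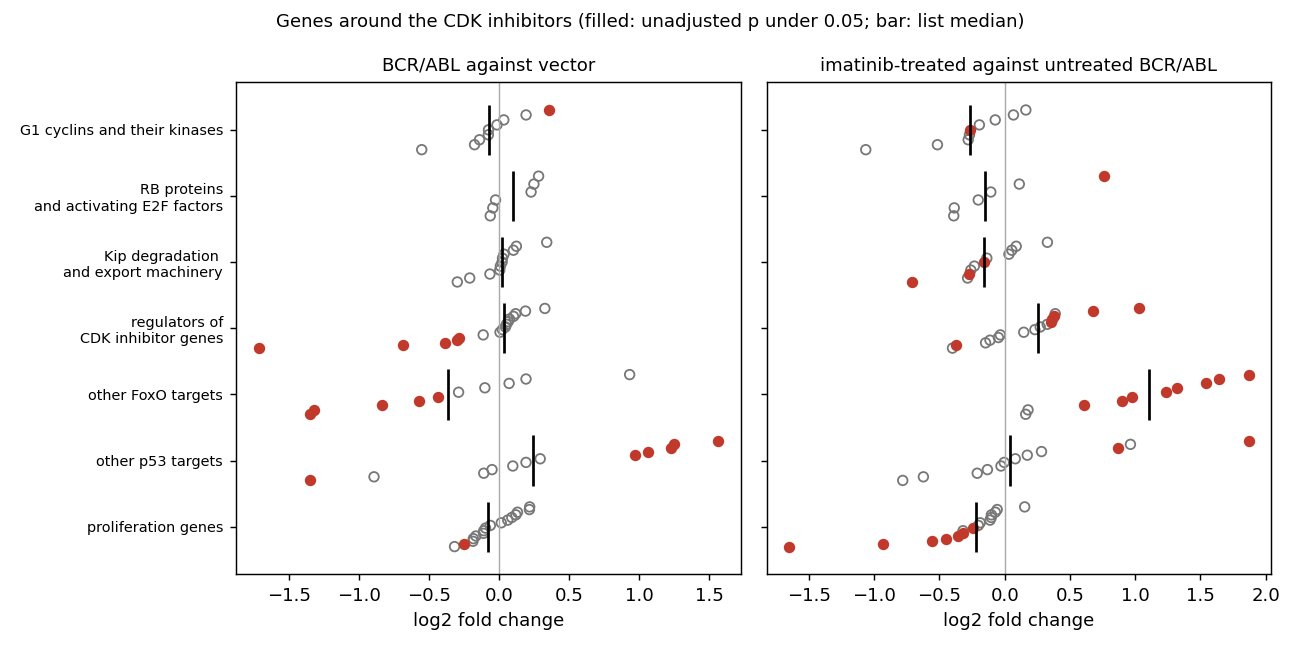
Log2 fold change of every measured gene of 7 lists around the CDK inhibitors (horizontal axis), in BCR/ABL against vector (left) and imatinib-treated against untreated BCR/ABL (right). Filled points have an unadjusted p under 0.05 and black bars are list medians. FoxO targets have a median of -0.37 on the left and 1.11 on the right.

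Genes with the pattern most like an inhibitor were sought by Pearson correlation over the 6 arrays, among 2882 genes whose main probe set was in the brighter 50% and ranged over at least 1 log2 unit. Cdkn1a, Cdkn1b and Cdkn2c met these limits themselves. For Cdkn1b the closest were Trp53inp1 (r = 0.990), H2bc21 (0.987) and Slc15a2 (0.985). For Cdkn1a they were Slc37a3 (0.982), Ptgs2 (0.980) and Ptpn9 (0.977), and for Cdkn2c Cep164 (0.982), Camk1d (0.979) and Gpm6b (0.950). With 6 arrays in 3 groups and many candidates, such values are a description of shared group levels and shared arrays, and no p is given.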

How the data were processed

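Values were 6 columns of array intensity, 1 per sample, on a linear scale, deposited by the authors. The submitters' processing notes, per the labels, name MAS5 and Affymetrix Expression Console, with versions not given in the sources used here. Each array had a mean of 500 after trimming 2% at each end. The design text names a whole-transcript array, but the probe set identifiers and annotation are those of an older expression array with probes near the transcript end. Of 45101 probe sets, 64 controls were left out, and 35877 with at least 1 gene symbol were tested without a filter on low values. All 9 inhibitor probe sets were matched to RefSeq by Entrez identifier.

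Values were transformed as log2(value + 16), quantile normalized and tested with limma 3.58.1 in R 4.3.3 (lmFit, eBayes with trend, two-sided) in 1 model of all 6 arrays, with 3 residual degrees of freedom and Benjamini-Hochberg adjustment over all 35877 probe sets. The procedure was tested on simulated data. Alternatives changed the scaling, added constant, filter, variance prior, replicate block, probe set rule and arrays used. The scaling of the gene lists and the alternatives for Trp53inp1 were added after the data were seen.

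The members and gene lists were chosen with earlier results of these data known. Named genes were all 7 members, each called gene of the lists, the 2 of lowest p in each pathway list and comparison, and the 3 most correlated genes. Some further genes were named after their values were seen. They were Cks1b with imatinib against untreated cells, Ebf1, Pax5, Nkg7, Kit, other stem cell markers and some p53 targets. Promoter sequences are those of RefSeq, GRCm38.p6. The number of arrays limits the precision.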

Additional observations from a re-analysis of the deposited data

How the results depend on the processing

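Of 306 values of the 7 genes under the alternatives (21 differences), 299 kept their direction and their side of the threshold, 3 passed where the reported value did not, and 4 changed sign. Those that passed were Cdkn2a and Cdkn2b in BCR/ABL against vector with median-centred arrays and Cdkn1b with imatinib in the brighter 50%. Those that changed sign were Cdkn1a with imatinib against untreated cells (0.0522 without imatinib replicate 2, -1.17 without replicate 1), Cdkn1c with imatinib against vector (0.047 with values as deposited; from -0.126 to 0.0456 leaving out 1 array, the latter without imatinib replicate 1) and Cdkn2c in the same comparison (from -1.02 to 0.0752 leaving out 1 array, the latter without vector replicate 1). The cause was not tested. Genes below the 50th percentile have no value under that filter. Many of the 306 values could not change direction. The variance prior, replicate block and filter leave each difference unchanged, as does the probe set rule for genes with 1 probe set. Leaving out an array of the group outside a comparison hardly moved the difference. The count of 299 therefore says nothing about direction under the alternatives that leave the difference unchanged.

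The number of probe sets called was less stable. In BCR/ABL against vector it was 22, and 298 with array medians (265 higher, 33 lower). It was 83 with 1 as the added constant, 132 above the 50th percentile, 0 without a trend in the variance prior and 42 with a robust prior. Leaving out 1 array gave from 0 to 38: 38 without vector replicate 1, 2 without vector replicate 2, 0 without either BCR/ABL array. In imatinib-treated against untreated cells it was 0 (5238 at an unadjusted p under 0.05), with 3 for 1 as the constant and 211 above the 50th percentile. With array medians it was 1200 (67 higher, 1133 lower), where that centring moved the median of all probe sets to -0.27. Leaving out any array gave 0. In imatinib-treated cells against vector it was 16 (15 higher, 1 lower), and 275 with array medians (201 higher, 74 lower), 78 and 3 with 1 and 64 as the constant, 181 above the 50th percentile, 0 without trend and 28 with a robust prior. Leaving out 1 array gave from 0 to 50: 30 and 50 without vector replicate 1 or 2, 0 without either BCR/ABL array or imatinib replicate 1, and 10 without imatinib replicate 2.

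With the replicate number as a block the counts were 22, 0 and 9, and no inhibitor gene changed its call. In BCR/ABL against vector the block took the unadjusted limma p of Cdkn2a from 0.00651 to 0.000715 and of Cdkn2c from 0.0833 to 0.00905. It also lowered that of Cdkn1a and Cdkn2d and raised that of Cdkn1b, Cdkn1c and Cdkn2b. Deviations of same-numbered arrays correlated at -0.08 for vector with BCR/ABL, 0.160 for vector with imatinib and 0.146 for BCR/ABL with imatinib, so the numbers were not taken to pair the arrays. These correlations are over all probe sets. They do not describe single genes, of which Cdkn1a, Cdkn2a, Cdkn2b, Cdkn2c and Cdkn2d were higher in replicate 1 in each group (main probe sets). Signal limits Cdkn1c on all arrays, Cdkn2a on the vector arrays, and Cdkn2b on the vector arrays and imatinib replicate 2, where intensities were below 32.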
